A study of Mus musculus with 13 samples.

Results

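The Tribbles genes Trib1, Trib2 and Trib3 and 7 genes of the ATF4 stress response, Atf4, Atf3, Ddit3, Ddit4, Asns, Chac1 and Ndrg1, were examined for C/EBPα binding in mouse LSK cells. These 10 genes were chosen with results of these data already known. Their regions were then selected by measured position, as every candidate C/EBPα region whose centre lay within 100 kb of the annotated transcription start site (TSS) of 1 of the genes. This gave 20 of the 17899 candidate regions. The values that follow are therefore descriptions, given without tests.

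The LSK fraction of mouse bone marrow, negative for markers of mature lineages and positive for Sca-1 and Kit, contains the blood stem cells and multipotent progenitors. In ChIP-seq, an antibody pulls crosslinked chromatin fragments out of the cells and the recovered DNA is sequenced and mapped. Of the 13 samples of the study, 1 was used, a library made with the antibody Cebpa, Santa Cruz 14-AA, from sorted Lin- Sca-1+ Kit+ cells, to ask where C/EBPα is bound in these cells. The other 12 samples, among them a further C/EBPα library from LSK cells, the IgG mock, and libraries from myeloid progenitors and of histone marks, were not analysed here. The strain label of the library is C57BL/6 cebpa flox/flox;Mx1Cre, a mouse with both Cebpa alleles flanked by recombination sites and with Cre under the interferon-inducible Mx1 promoter. No genotype is given for this library, and the same strain label stands on histone libraries labelled wild type and on those labelled knock out, so whether Cebpa was intact in the sorted cells is not settled by the labels. They give no age for the mice.

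Each candidate region carries a score set by the peak caller MACS against the IgG mock, which is 10 times the negative log10 of the p-value for an excess of ChIP reads. The lowest score in the list was 50, a p-value of 1e-05, the median was 73.8 and the highest was 3104.89. These are candidates, listed ahead of the filters that the authors applied. The list gives no read numbers and mapped reads per library were not used here, so no precision from depth is given. It gives no summits, and positions refer to region centres. With 1 library used, no value was checked in a replicate, and the sources used here do not state whether reads of both LSK libraries entered the call.

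Tribbles proteins are pseudokinases, of which Trib1 and Trib2 bring the ubiquitin ligase COP1 to C/EBPα. Forced expression of Trib1 or Trib2 in bone marrow degrades C/EBPα and causes acute myeloid leukemia in mice. ATF4 is a bZIP transcription factor whose translation rises when kinases that sense amino acid shortage, unfolded proteins, heme shortage or viral RNA phosphorylate eIF2α. ATF4 pairs with C/EBP proteins on composite elements in which a C/EBP site is joined to an ATF site, and it switches on genes of amino acid supply, redox balance and cell death, among them Ddit3, which encodes the C/EBP family member CHOP, and Trib3.

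The sequences at the centre of the account are those at the start sites of Ndrg1, Ddit3, Trib3 and Chac1, because in these 4 genes a candidate region at the start held a C/EBP or composite word upstream of the TSS. These words are the letters for which C/EBPα or its relatives paired with ATF4 or CHOP are known. The C/EBP words searched were TTGCNNAA and TTACNNAA, and the composite words were TGATGNAA, the C/EBP-ATF response element, and TGCAATNCC, the CHOP-C/EBP element. All were searched on both strands. TTGCGCAA is a case of TTGCNNAA and reads the same on both strands. A TGATGCAA that runs on as TNCC also holds TGCAATNCC, and the 2 words are then counted as overlapping matches. In the lines below, mm9 sequence is written 5′ to 3′ on the strand of the gene, and capitals mark these words, with SP1 words (CCCGCCC) marked in the Ndrg1 line alone and an AP-1 word (TGANTCA) in the Ddit3 line.
Ndrg1 promoter, chr15:66801322-66801412, minus strand: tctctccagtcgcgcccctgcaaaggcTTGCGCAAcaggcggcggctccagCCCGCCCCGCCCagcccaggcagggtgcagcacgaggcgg
Ddit3 promoter, chr10:126727520-126727630, plus strand: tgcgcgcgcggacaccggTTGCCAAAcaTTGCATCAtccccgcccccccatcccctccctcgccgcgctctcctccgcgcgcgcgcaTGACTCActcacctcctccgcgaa
Trib3 promoter, chr2:152169769-152169858, minus strand: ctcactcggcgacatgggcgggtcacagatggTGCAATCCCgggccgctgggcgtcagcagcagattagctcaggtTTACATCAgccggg
Chac1 promoter, chr2:119176750-119176830, plus strand: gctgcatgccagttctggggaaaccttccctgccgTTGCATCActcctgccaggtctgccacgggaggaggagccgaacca

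The capitals in the Ndrg1 line are the C/EBP palindrome TTGCGCAA and a run of overlapping SP1 words. In the Ddit3 line they are the C/EBP word TTGCCAAA, then 2 bases later TTGCATCA, which is TGATGCAA on the other strand, and then the AP-1 word TGACTCA. The Trib3 line holds TGCAATCCC and, 35 bases after it, TTACATCA, which is TGATGTAA on the other strand. The Chac1 line holds TTGCATCA. All 4 stretches lie upstream of the TSS in sequence that the annotation gives as intergenic. A match describes letters and is no proof of a bound site.

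All 10 genes had at least 1 candidate region within 100 kb of the TSS, a count set by the selection, beside 79.2% of the 22359 annotated protein-coding genes. Within 1 kb of the TSS, 5 of the 10 genes had a region, namely Trib1, Trib3, Ddit3, Chac1 and Ndrg1, beside 3.03% of all protein-coding genes. A region with a score of 200 or more lay within 100 kb of 2 genes, Ddit3 and Ndrg1, beside 5.38% of all genes. Trib1 had 7 regions, Atf3 had 4, Chac1 had 2 and the other 7 genes had 1 each, where the median over all genes was 2. The regions thus fell into a group of 5 at promoters and a group of 15 farther away. The median score was 137 in the first group and 63.5 in the second, and 69.8 over all 20. Over all candidate regions the median was 82.2 within 1 kb of a TSS and 73.5 farther away.

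**Figure D1:**
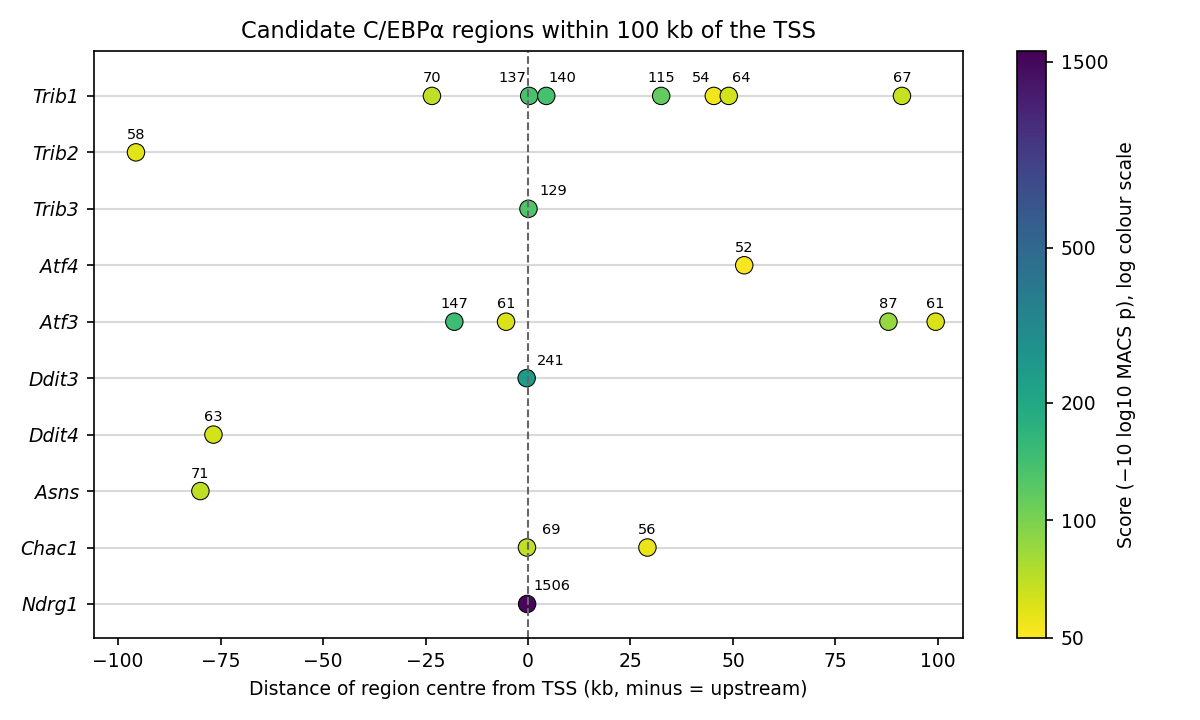
Candidate C/EBPα regions around 10 genes. Each point is 1 region, placed by the distance of its centre from the TSS in kb (minus is upstream), with colour on a log scale and the printed number giving the score. Trib1 has 7 points spread over both sides of its TSS, and Ndrg1 has 1 point, at its TSS, with a score of 1506.

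The Tribbles genes differed from each other in their regions. Trib1, a partner of COP1 in the breakdown of C/EBPα, had 7 regions on chr15, on both sides of its TSS at position 59479905. As many regions or more were found around 0.662% of all protein-coding genes. No other protein-coding gene has its TSS within 100 kb of that of Trib1, and all 7 regions had Trib1 as their nearest gene. Of the 7, 3 had a score of at least 100, beside 20.3% of all candidate regions. A score as high as the highest of the 7, 139.8, was found within 100 kb of the TSS for 10.9% of all genes.

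The region at the Trib1 start, chr15:59479817-59480565, was 749 bp wide and had a score of 137, rank 1094 of 17899. It covered the TSS, and its centre lay 285.5 bp downstream in exon 1, in the 5′ UTR. Among the 638 candidate regions within 1 kb of a TSS, 24.6% had a score as high as this start region. A second region, chr15:59484032-59484693, lay in intron 2, 4457 bp downstream of the TSS, with a width of 662 bp and a score of 139.8, the highest of the 7. The third, chr15:59512093-59512683, was intergenic, 32482.5 bp downstream, and had a score of 115. The Trib1 regions with scores of 100 or more were therefore at the start, inside the gene and beyond its end.

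The other 4 Trib1 regions were intergenic and had scores from 53.7 to 70.3. They lay 23439 bp upstream (chr15:59456174-59456759) and 45329.5 bp, 48972.5 bp and 91231.5 bp downstream (chr15:59524965-59525505, chr15:59528557-59529199 and chr15:59570837-59571437). Each of these scores was below the median of all candidate regions.

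The next stretches of Trib1 sequence are shown because they hold the C/EBP word of its start region, 2 of the C/EBP words of its intron region and a word that the start region leaves out. All are on the plus strand, and capitals mark a C/EBP word in the first, C/EBP words in the second, and the CRE word TGACGTCA with SP1 words in the third.
Trib1 5′ UTR in exon 1, chr15:59480073-59480102: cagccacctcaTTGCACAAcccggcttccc
Trib1 intron 2, chr15:59484475-59484535: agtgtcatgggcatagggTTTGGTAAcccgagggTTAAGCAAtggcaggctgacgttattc
Trib1 promoter, chr15:59479755-59479820: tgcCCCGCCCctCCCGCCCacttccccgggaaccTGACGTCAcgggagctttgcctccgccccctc

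In the start region of Trib1, the C/EBP word TTGCACAA was 103 bp from the region centre, and an AP-1 word, TGAGTCA, was 38.5 bp from it. The intron region held 4 C/EBP words over its whole width, TTACCAAA and TTGCTTAA on the other strand, 8 bases apart, and TTACAGAA and TTACATAA on the strand of the gene, with a further AP-1 word. The palindrome TGACGTCA, the cAMP response element (CRE) that ATF and CREB proteins are known for, lay 112.5 bp upstream of the TSS. It ended 20 bases before the start region began, so it was outside every candidate region at this promoter. The region 91231.5 bp downstream held another TGACGTCA, 238 bp from its centre. Words of the C/EBP kind and of the ATF kind were thus both present at Trib1, and no composite word was found in its 7 regions.

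Trib2, which shares the action of Trib1 on C/EBPα, had 1 region, chr12:15918947-15919523, intergenic and 95643.5 bp upstream of the TSS. Its score was 58.3 and its width 577 bp. A score as high within 100 kb was found for 71.9% of all genes. The region held the composite word TGATGCAA 132 bp from its centre, an AP-1 word, TGAATCA, 29.5 bp from it and the C/EBP word TTGCCAAA 149 bp from it. No candidate region lay at the Trib2 promoter, so among the Tribbles genes the signal near a start site was at Trib1 and Trib3.

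Trib3, which is induced by ATF4 and CHOP and whose protein binds ATF4, had 1 region, chr2:152169296-152170017, over its start. It was 722 bp wide, with its centre 112 bp downstream of the TSS in the 5′ UTR of exon 1, and it had a score of 129, rank 1320. Of its 32-base stretches, 92.0% were unique in the genome. Among the 638 candidate regions within 1 kb of a TSS, 26.2% had a score as high as the Trib3 region. The region held the composite words TGATGTAA, 10.5 bp upstream of the TSS, and TGCAATCCC, 54 bp upstream, as shown above, and 3 SP1 words. No C/EBP word was found in it, which sets it apart from the start region of Trib1, where the C/EBP word was found without a composite word.

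Among the ATF factors, Atf4 itself, the central factor of the response, had 1 region, chr15:80138068-80138657. This region had the lowest score of the 20, at 51.7, and lay 52748 bp downstream of the Atf4 TSS, in intron 2 of Cacna1i, whose TSS is nearer at 20694 bp. It held a RUNX word, TGTGGT, and none of the C/EBP, composite, CRE or AP-1 words. The Atf4 start site had no candidate region.

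Atf3, a bZIP repressor and activator induced downstream of ATF4, had 4 regions on chr1, none of them within 1 kb of the TSS. The region chr1:193024678-193025712, intergenic and 17975.5 bp upstream, had a score of 147, rank 814, and at 1035 bp was the widest of the 20. The region chr1:193012241-193012920 lay 5361 bp upstream with a score of 60.5. Downstream, the regions chr1:192918941-192919624 and chr1:192907486-192908044 had scores of 86.9 and 60.8 and were nearer to the TSS of Batf3, at 3011 bp and 14528.5 bp. The strongest region of Atf3 was thus a distal one upstream of the gene.

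The upstream region and the promoter of Atf3 are shown together because the same composite word stands in both, in 1 case within a candidate region and in the other without. Both are on the minus strand, the strand of the gene, both are intergenic, and capitals mark C/EBP and composite words.
Atf3 upstream region, chr1:193025274-193025344: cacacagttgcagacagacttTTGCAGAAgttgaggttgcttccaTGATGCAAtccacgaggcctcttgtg
Atf3 promoter, chr1:193007289-193007349: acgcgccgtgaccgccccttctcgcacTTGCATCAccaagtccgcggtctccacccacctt

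In the upstream region, the C/EBP word TTGCAGAA and the composite word TGATGCAA were 16 bases apart, 125 bp and 101 bp from the region centre. Of the 32-base stretches of this region, 89.5% were unique in the genome. The promoter word, TTGCATCA or TGATGCAA on the other strand, lay 99.5 bp upstream of the TSS. The nearest candidate region to it was the one 5361 bp upstream, which held a C/EBP word, TTACTTAA, far from its centre at 312.5 bp. The words at the Atf3 promoter therefore had no candidate region over them in this library.

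Ddit3, which encodes CHOP, a C/EBP family member that pairs with other C/EBP proteins, had 1 region, chr10:126727256-126727742. Its score of 241 was the second highest of the 20 and ranked 271 of 17899. The region was 487 bp wide and intergenic, and its centre lay 331.5 bp upstream of the TSS and its end 88 bp upstream. It also lay 21343.5 bp from the TSS of Mars, the gene of methionyl-tRNA synthetase. Among the 638 candidate regions within 1 kb of a TSS, 13.6% had a score as high.

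The words of the Ddit3 region stood close together near its centre. The C/EBP word TTGCCAAA was 43 bp and the composite word TGATGCAA 53 bp from the centre, at 288.5 bp and 278.5 bp upstream of the TSS. The AP-1 word TGACTCA was 111.5 bp from the centre, and an ETS word, CGGAAGT, and an SP1 word were also present. Of the 20 regions, those of Ddit3 and of Atf3 17975.5 bp upstream were the ones that held both a C/EBP and a composite word wholly within 150 bp of the centre. In the Trib2 region the C/EBP word ran past that limit.

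**Figure D2:**
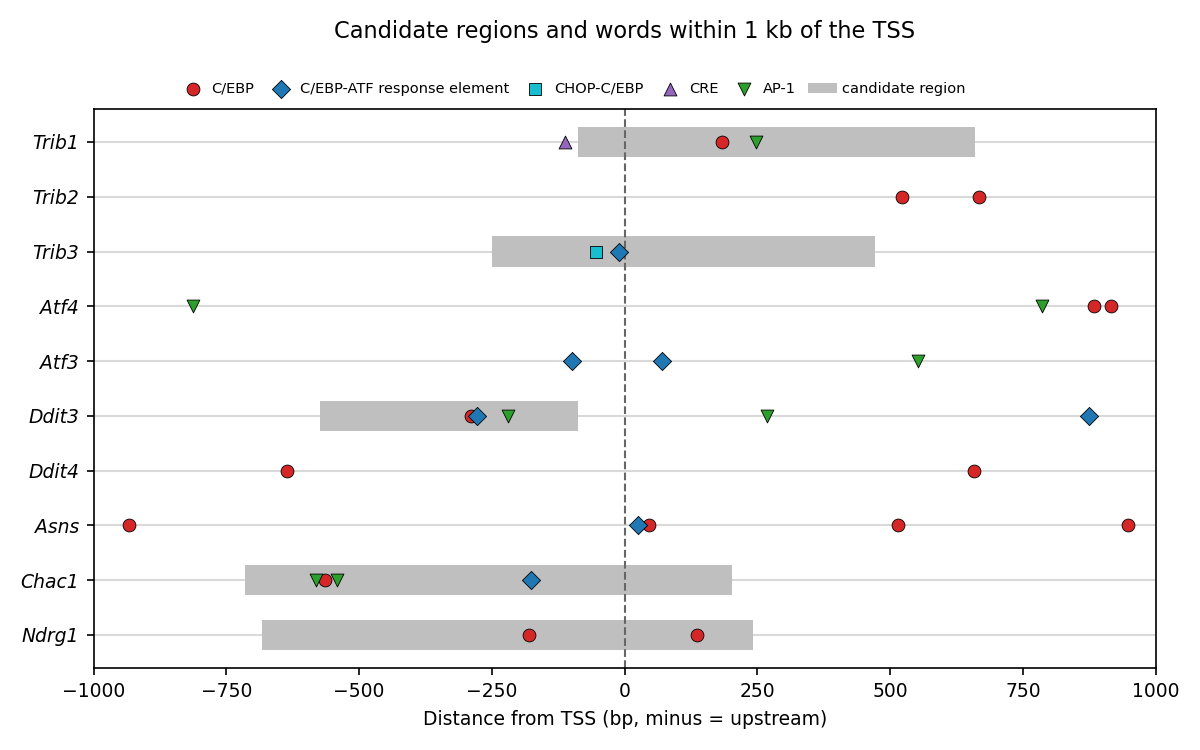
Candidate regions (grey bars) and words (symbols) within 1 kb of the TSS of 10 genes, by distance from the TSS in bp (minus is upstream). Composite words lie inside the bars of Trib3, Ddit3 and Chac1, and C/EBP words lie inside those of Trib1, Ddit3, Chac1 and Ndrg1. Atf3 and Asns hold composite words and have no bar, and Trib2, Atf4, Ddit4 and Asns hold C/EBP words and have no bar. A further composite word of Ddit3, 874.5 bp downstream of the TSS, lies outside its bar.

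The 4 target genes differed widely in score. Ndrg1, a protein induced by hypoxia and by endoplasmic reticulum stress, had 1 region, chr15:66800960-66801884, with a score of 1506. This was rank 12 of all 17899 candidate regions, and 8 of the 638 regions within 1 kb of a TSS (1.25%) had a score as high, itself among them. The region was 925 bp wide and covered the TSS, with its centre 219.5 bp upstream. The palindrome TTGCGCAA lay 40 bp from the centre and 179.5 bp upstream of the TSS, a second C/EBP word, TTACCTAA, lay 136.5 bp downstream of the TSS, and 4 SP1 words were present. The strongest of the 20 regions thus had a C/EBP palindrome near its centre and held no composite word.

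Chac1, an enzyme that breaks down glutathione, had a region over its start, chr2:119176251-119177168, 918 bp wide, with a score of 69.4 and rank 10181. Its centre lay 256 bp upstream of the TSS. The composite word TGATGCAA was 79.5 bp from the centre and 176.5 bp upstream of the TSS, and a C/EBP word, TTGCAAAA, lay farther out, 564.5 bp upstream, between AP-1 words at 582 bp and 542 bp. Of the 638 regions within 1 kb of a TSS, 65.0% had a score as high, so this region was an ordinary one by score. The other Chac1 region, chr2:119205832-119206361, lay 29131 bp downstream in intron 32 of Ino80 and had a score of 56.3.

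**Figure D3:**
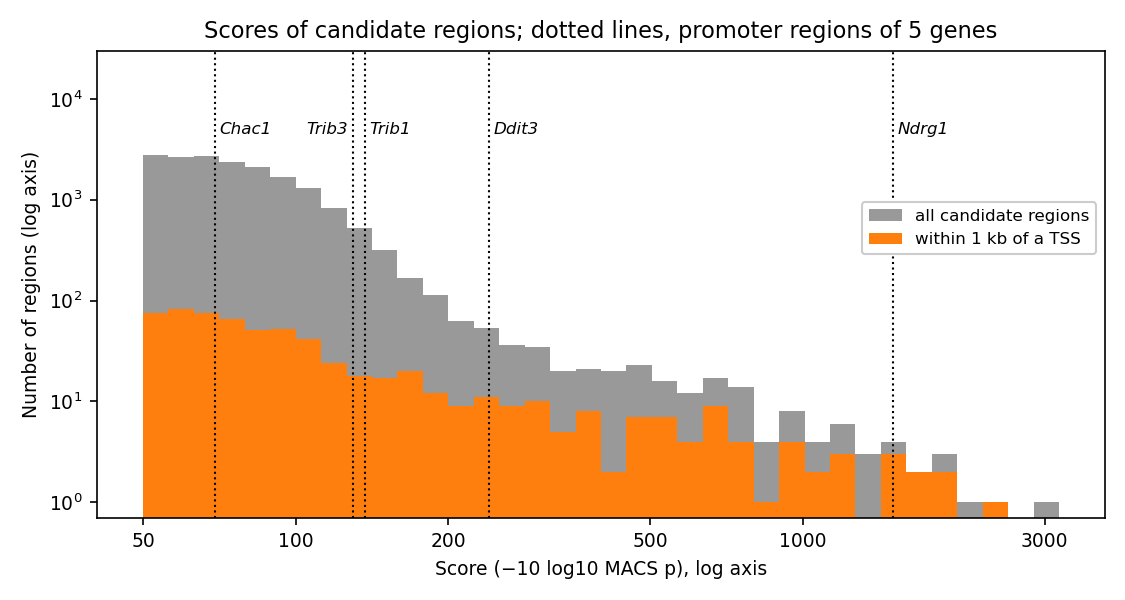
Scores of all 17899 candidate regions (grey) and of the 638 within 1 kb of a TSS (orange), as numbers of regions on a log axis against the score on a log axis. Dotted lines mark the promoter regions of 5 genes, from Chac1 at 69.4 through Trib3, Trib1 and Ddit3 to Ndrg1 at 1506.

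Asns, the enzyme that makes asparagine, had 1 region, chr6:7722941-7723416, intergenic and 79924 bp upstream, with a score of 71.1. The TSS of C1galt1 was nearer to it, at 71664 bp. Its letters included none of the C/EBP or composite words. The composite word of Asns stands in exon 1, centred 25.5 bp downstream of the annotated TSS, and is shown as the counterpart of the Chac1 word, since it had no candidate region over it. The line is on the minus strand of mm9, the strand of the gene, and capitals mark the word.
Asns 5′ UTR in exon 1, chr6:7643214-7643243: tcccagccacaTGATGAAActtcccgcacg

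Ddit4, an inhibitor of the growth kinase mTORC1, had 1 region, chr10:59490878-59491646, with a score of 63.0. It was 769 bp wide and lay 76743.5 bp upstream of the Ddit4 TSS, in intron 5 of Ascc1, and the TSS of Anapc16 was nearer at 25401.5 bp. Ddit4, Asns and Atf4 had in common that their sole region was distant, was below a score of 100 and was nearer to another gene.

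Over all 20 regions, 9 lay upstream and 11 downstream of the TSS, and 15 had the gene they were assigned to as the nearest. By their centres, 13 were intergenic, 4 in introns, 2 in a 5′ UTR and 1 in a 3′ UTR, that of Nsl1 in exon 6. Among all candidate regions, 53.2% were intergenic, 40.8% in introns, 0.548% in 5′ UTRs and 1.23% in 3′ UTRs. At the distance limit, the farthest region inside was that of Atf3 at 99454.5 bp, with a score of 60.8, and the nearest outside was one at 103073.5 bp from the TSS of Trib3, with a score of 60.2. A score of at least 100 was found in 7 of the 20 regions and in 20.3% of all candidate regions.

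The promoter regions differed from the distant ones in base composition as well. The median GC content in the 300 bp around the centre was 65.0% for the 5 promoter regions and 52.3% for the other 15. Over all candidate regions within 1 kb of a TSS the median was 57.3%, and over those farther away it was 50.7%. By this measure the promoter regions of the 10 genes were on the GC-rich side of candidate promoter regions, from 62.7% at Trib1 to 71.3% at Ndrg1.

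Counted in windows of 300 bp, 150 bp to each side of the centre, a C/EBP word was found in 5 of the 20 regions, beside 20.3% of all candidate regions. Within 70 bp of the centre the count was 2, beside 10.5%, and over the whole region it was 10, beside 36.3%. The 5 were the start and intron regions of Trib1, the upstream region of Atf3, and the promoter regions of Ddit3 and Ndrg1. The count of 5 is near the background. All 5 had scores above 100, and those of Ddit3 and Ndrg1 alone were above 200. Among all candidate regions with a score of 200 or more, 66.6% held a C/EBP word.

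A composite word was found in 5 of the 20 regions, beside 5.68% of all candidate regions. Over the whole region the count was also 5, beside 10.7% of all. Within 70 bp of the centre it fell to 1, that of Ddit3, beside 2.69% of all. The 5 belonged to Trib2, Trib3, Atf3, Ddit3 and Chac1, and in each the word was TGATGNAA. Among candidate regions within 1 kb of a TSS, 6.74% held a composite word, and among those with a score of 200 or more, 9.51%. Since these genes are known for composite elements, the count describes the genes chosen and is not a finding about C/EBPα. The SP1 word was found in 4 regions, beside 3.17% of all candidates. All 4 were promoter regions, and among all candidate regions within 1 kb of a TSS the share was 22.6%. The AP-1 word was found in 3 regions (8.29% of all), the RUNX word TGTGGT in 5 (23.2%), the ETS words AGGAAGT or CGGAAGT in 1 (9.21%) and the CRE word in 0 (0.358%).

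The same words were counted in the promoters themselves, in the 250 bases before the TSS and the 50 bases that begin with it, whether or not a region was present. A composite word was found in 4 of the 10 promoters, those of Trib3, Atf3, Asns and Chac1, and in 4.07% of all 22359 promoters. Of these 4, Trib3 and Chac1 had a candidate region within 1 kb and Atf3 and Asns had none. The words of Ddit3, 288.5 bp and 278.5 bp upstream, lie outside this window, so its promoter counts in neither share. A C/EBP word was found in 1 of the 10 promoters, that of Ndrg1, and in 17.2% of all, and a C/EBP word of Asns, TTACAGAA, centred 46.5 bp downstream of the TSS, ran 1 base past the window. The palindrome TTGCGCAA of Ndrg1 occurs in 0.219% of all promoters.

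Across all promoters, the share with a candidate region was counted for each word, a count chosen after the data were seen and given as a description. Of the 49 promoters with TTGCGCAA, 30 had a region within 1 kb, or 61.2% (95% exact binomial interval 46.2 to 74.8). Of the 795 promoters with TGATGNAA, 28 had one, or 3.52% (2.35 to 5.05), beside 3.03% of all genes. Promoters with TTGCNNAA, the wider form of the palindrome, had a region in 132 of 2280 cases, or 5.79%. Promoters with any C/EBP word had a region in 4.89% of cases and those with the CRE word in 2.10%. Ndrg1 thus belonged to a small class of promoters most of which had a region. The composite word of Trib3, Atf3, Asns and Chac1 was carried by many promoters without one. The shares of TTGCGCAA and TGATGNAA are not a like comparison, since the former has every letter fixed and the latter has a free position. No share is given for TGATGCAA alone, so the kinds of word are not ranked by these shares.

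**Figure D4:**
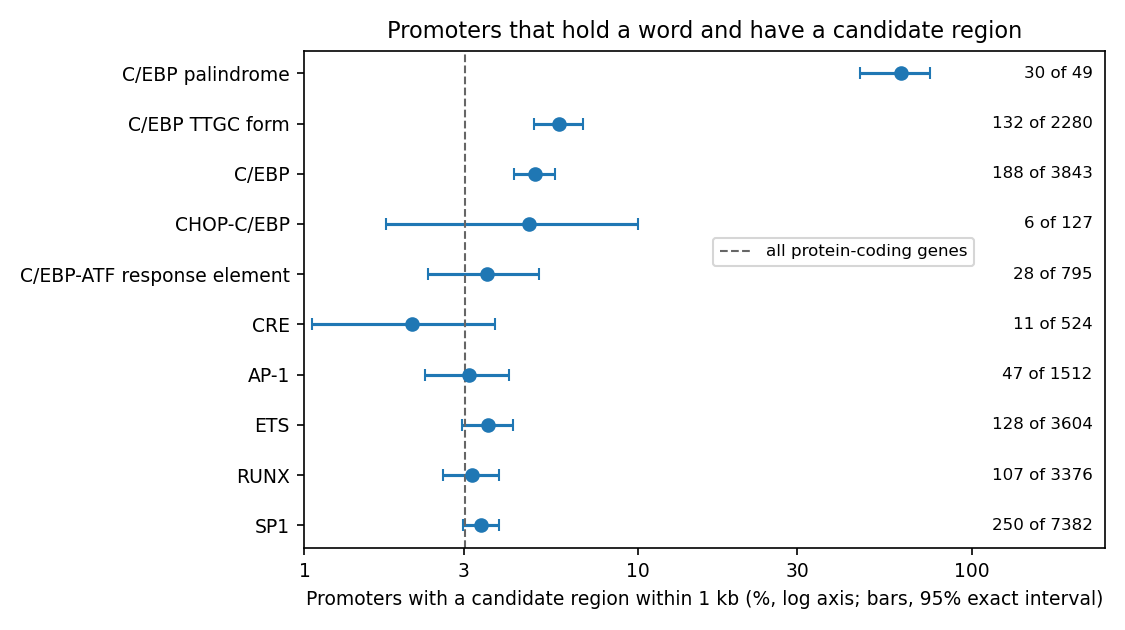
Share of promoters holding a word that had a candidate region within 1 kb of the TSS, in percent on a log axis. Points are shares with 95% exact binomial intervals over promoters, and numbers at the right are promoters with a region of promoters with the word. The dashed line is the share of all protein-coding genes, 3.03%. The palindrome TTGCGCAA is at 61.2%, its wider form TTGCNNAA at 5.79% and the C/EBP-ATF response element TGATGNAA at 3.52%.

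Other genes were taken from a list of 58, all of which were found in the annotation. The list held ATF4 and CHOP targets, amino acid and one-carbon enzymes, aminoacyl-tRNA synthetases, unfolded protein response genes and eIF2α kinases. It also held Rfwd2, the gene of COP1, as the partner of Tribbles proteins. A region within 1 kb of the TSS was present for 11 of the 58 (19.0%), beside the 3.03% of all genes given above, and a region of any score within 100 kb for 53, or 91.4%, beside 79.2% of all genes. A region with a score of 200 or more lay within 100 kb of 12 of the 58, or 20.7%, beside 5.38% of all genes. For 1 of the 12, Mars, this was the promoter region of Ddit3. The remaining 47 genes had no region within 1 kb, among them Rfwd2, the gene of COP1, whose nearest region was 81924.5 bp away with a score of 75.3.

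Of the 12 aminoacyl-tRNA synthetase genes on the list, 5 were among the 11 and 7 had no region within 1 kb. Iars, Nars, Aars, Sars and Gars encode the 5 synthetases, which load amino acids onto their tRNAs, and their nearest regions had scores of 727, 317, 286, 169 and 66.9. Pycr1 and Aldh18a1, enzymes of proline synthesis, had scores of 399.95 and 76.8. Slc38a2, an amino acid transporter, had 183, and Shmt2, a serine and glycine enzyme of mitochondria, had 111. Herpud1, a factor in the removal of misfolded proteins, had 217, and Map1lc3b, the autophagy protein LC3B, had 62.5. The list was made up to a large part of synthetases and of enzymes and transporters of amino acids, and nothing is read from the kinds of genes found.

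A composite word was found within 150 bp of the region centre in 8 of the 11 genes, all but Nars, Aldh18a1 and Map1lc3b, and a C/EBP word in 2, Shmt2 and Gars. Among all candidate regions within 1 kb of a TSS, 6.74% held a composite word and 33.7% a C/EBP word. The list was drawn up largely from known ATF4 and CHOP targets, and the counts are a description of it. Together with the 5 composite words of the chosen genes, this gave 15 words of the form TGATGNAA in 13 genes. To show the letters around them, the words of the chosen genes are set beside those of 7 other genes, in mm9 on the strand on which the word reads TGATGNAA, with the word in capitals and 9 bases to each side. The Trib3 line reaches into the 5′ UTR, the Iars line lies in a 5′ UTR, those of Slc38a2, Sars and Shmt2 lie in introns, and the others are intergenic.
Trib2, chr12:15919354-15919379, plus strand: aggtagaggTGATGCAAaggaggata
Trib3, chr2:152169766-152169791, plus strand: ccgcccggcTGATGTAAacctgagct
Atf3, chr1:193025283-193025308, minus strand: ttgcttccaTGATGCAAtccacgagg
Ddit3, chr10:126727539-126727564, minus strand: gggcggggaTGATGCAAtgtttggca
Chac1, chr2:119176776-119176801, minus strand: tggcaggagTGATGCAAcggcaggga
Iars, chr13:49777497-49777522, minus strand: gtctggaggTGATGCAAtactgacag
Pycr1, chr11:120505149-120505174, minus strand: ccctgtgtaTGATGCAAtgcacaagg
Herpud1, chr8:96910208-96910233, minus strand: ggtgcgggcTGATGCAAcccgccgtg
Slc38a2, chr15:96529599-96529624, plus strand: gggaggaacTGATGCAAtaccgaggg
Sars, chr3:108247110-108247135, minus strand: cgggtagtcTGATGCAAtaggtctgc
Shmt2, chr10:126958982-126959007, plus strand: acccttgcgTGATGAAAgtactgagg
Shmt2, chr10:126959004-126959029, minus strand: ctatggagaTGATGCAAccgagcctc
Gars, chr6:54987956-54987981, minus strand: cccggtgcaTGATGAAAtagcgcagc

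Of the 15 words, 11 were TGATGCAA, in which the free position is a C, and 8 were followed by a T. Both held for 7 of them, which read TGATGCAAT, among them those of Atf3, Ddit3, Iars, Pycr1, Slc38a2 and Sars in the lines above. The Slc38a2 line also holds TGCAATACC, a CHOP-C/EBP word that overlaps with it. The words of Trib2 and Trib3 were followed by an A and that of Chac1 by a C. No matching shares over all candidate regions are given, so nothing particular to these genes is read from these letters.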

How the data were processed

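C/EBPα ChIP-seq regions of 1 library from LSK cells were analysed. The submitters' processing notes name Bowtie 0.12.8, bedtools 2.16.2, MACS 1.4.2 and the assembly mm9. The authors mapped the reads, called candidate regions with MACS against an IgG mock at a p-value threshold of 1e-05 and deposited each region with a score, the negative log10 of each MACS p-value multiplied by 10 and not scaled to depth. Genome sequence and genes came from the assembly NCBIM37, which is mm9, and its GENCODE annotation. The TSS was that of the protein-coding transcript with the longest span. The members and lists were chosen with earlier results of these data known. All 10 genes were named, with every region within 5 kb, the nearest and the highest within 100 kb, and of the other stress response genes those with a region within 1 kb. The remaining regions of these genes and Rfwd2 were named after their values were seen. Words were counted on both strands within 150 bp of region centres, and uniqueness from 32-base stretches. Intervals are exact binomial (Clopper-Pearson) at 95% and cover counting error only. No test was run. The counting was tested on simulated data. The sequences of 2 composite words are not reported here. Alternatives were other distances, scores, windows, words and TSSs. Python 3.11.15, numpy 2.4.6, pandas 2.3.3, scipy 1.17.1, pysam 0.24.0, numba 0.67.0, matplotlib 3.10.9 and samtools 1.23.1 were used.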

Additional observations from a re-analysis of the deposited data

How the results depend on the processing

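Of 38 recomputed values, 26 stayed close to the value reported, within 1.5 times it or, for shares of promoters, within the 95% interval, and 12 moved. Counting only regions with a score of at least 200, genes with a region within 1 kb went from 5 to 2 (0.514% of all genes) and other stress response genes from 11 to 5. At a score of at least 100, regions went from 20 to 7, genes with such a region within 100 kb were 5 in place of 2 (27.7% of all genes), and the share of TGATGNAA promoters with a region went from 3.52% to 1.64%, while that of all genes went from 3.03% to 1.15%. At a score of at least 300, 1 gene was left (3.18% of all genes). These follow from counting fewer or more regions, as do 13 regions within 50 kb and 44 within 200 kb. The median score of the regions within 50 kb was 115 in place of 69.8. Within 70 bp of the centre, 2 regions held a C/EBP word (10.5% of all candidates) and 1 a composite word (2.69%), in place of 5 each, and over the whole region 10 held a C/EBP word (36.3%), since shorter or longer sequence was searched. Over the whole region 5 held a composite word, as in the main count, while the share of all candidates went from 5.68% to 10.7%. The shares of promoters with a word that had a region, the count of composite words at the other stress response genes, and the alternatives to both were chosen after seeing the data. Other TSSs, nearest edges and narrower word definitions changed no count by more than 1.5 times. No paired analysis was possible because the numbered libraries, those of histone marks, were not analysed here and no groups were compared. With 1 library, none could be left out.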
